A study of Homo sapiens with 22 samples.

Results

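10 feedback genes, which ERK signalling is known to switch on against itself, were followed through drug treatment of 2 neuroblastoma cell lines. They were the rows of the count table named DUSP4, DUSP5, DUSP6, SPRY1, SPRY2, SPRY4, SPRED1, SPRED2, ETV4 and ETV5, 10 of 35237 rows, chosen by name. All 10 passed the filter on low counts in SK-N-AS and 9 passed it in GIMEN, where SPRY1 had no count. RNA was sequenced from 22 libraries, 16 of SK-N-AS and 6 of GIMEN, both established human neuroblastoma lines. Untreated SK-N-AS (n = 4) grew in DMEM with 10% fetal bovine serum. S1D4 (n = 4) was SK-N-AS after 4 days of 5 µM PP121, a synthetic inhibitor of tyrosine kinases and of PI3K and mTOR, in DMEM with 1% serum. S2D4 and S2D30 (n = 4 each) were S1D4 cells moved to 5 µM PP121 with 100 nM bufalin in Neurobasal with B27, a medium for which the labels list no serum, for 4 or 30 days. Bufalin is a cardiac glycoside, which blocks the sodium-potassium pump. Untreated GIMEN (n = 3) grew in RPMI with 10% serum, and GIMEN D30 (n = 3) received 2.5 µM PP121 with 10 nM bufalin in RPMI with 1% serum for 30 days. No vehicle group and no group with bufalin alone was among these samples, so drug, serum and time cannot be told apart in comparisons with untreated cells (for S2D4 and S2D30 also the medium), nor line and protocol between the lines. S2D4 and S2D30 differ in the labels by time alone. Nothing in the labels says that replicates came from separate cultures, so p-values measure the spread between these samples, which may be technical.

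ERK is the last kinase of the RAS, RAF and MEK cascade that growth factor receptors start. Its activity induces genes whose products restrain the same cascade. DUSP proteins of this group remove the activating phosphates from ERK, Sprouty proteins act between receptors and RAF, and SPRED proteins bring neurofibromin, which turns RAS off, to the membrane. ETV4 and ETV5 are ETS-family transcription factors that rise with the same signal and serve as its readout together with the inhibitors. In neuroblastoma, receptor kinases and RAS feed this cascade, and the RNA of these genes is often read in place of ERK activity, which was not measured here.

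Library totals were 16456484 to 37506800 counts. Levels are given as CPM (counts scaled to a common library total) on 1 scaling of all 22 libraries, and a gene was called changed at an adjusted p under 0.05 in edgeR's quasi-likelihood test over all genes. Both lines are labelled mesenchymal. Summed CPM of 8 mesenchymal markers was 37700 to 39300 in untreated GIMEN and 931 to 1470 in untreated SK-N-AS. The sum lay between 1320 and 1540 at S1D4, 2530 and 4770 at S2D4, 3090 and 3810 at S2D30, and 20500 and 23600 at GIMEN D30. Of the 8 markers, 3 rose and 4 fell in S1D4, and 6 rose and 2 fell in S2D4 and in S2D30. In GIMEN D30, 1 rose and 6 fell. FOSL1, 1 of these markers, is also among the ERK-induced genes counted below. Of the adrenergic markers, 6 had a summed CPM between 996 and 1081 in SK-N-AS before treatment, 840 and 1045 at S1D4, 520 and 783 at S2D4, and 165 and 208 at S2D30, where 5 of the 6 fell and 0 rose. In S1D4, 1 of the 6 rose and 2 fell, and in S2D4, 1 rose and 4 fell. The sum of these 6 lay between 409 and 434 in GIMEN before treatment and between 232 and 276 after it. Only 3 of the 6 were tested in GIMEN, where 1 rose and 1 fell in D30. The glial list reached at most 7.43 CPM. The 6 leukocyte markers had a summed CPM between 170 and 216 in SK-N-AS before treatment, 78.1 and 97.3 at S1D4, 101 and 158 at S2D4, and 99.6 and 151 at S2D30. In GIMEN that sum lay between 88.4 and 99.5 before treatment and between 174 and 406 after it. Of the 3 leukocyte markers tested in SK-N-AS, 2 rose and 1 fell in S2D30. In S1D4 and in S2D4, 1 rose and 1 fell. Of the 2 tested in GIMEN, 1 rose and 1 fell in D30. Among the 6, CD68, a lysosomal protein of macrophages, had a mean of 93.5 CPM in GIMEN before treatment and 291 after it. Of the stretches of 75 bases in CD68, 73.8% are shared with other genes, so its counts may include their reads. The T cell gene CD3E was at 0 in all SK-N-AS libraries, while PTPRC had 158 to 207 CPM in untreated SK-N-AS and 0.526 to 1.36 in S2D30. In both GIMEN groups CD3E had more than 3 counts in at least 1 library. The markers CD79A and LYZ had at most 3 counts in every GIMEN library, as had CD14 in untreated GIMEN. Summed CPM of 4 cell cycle genes went from 523 to 735 in untreated SK-N-AS down to 3.79 to 5.53 in S2D30, and from 1110 to 1130 down to 16.2 to 19.4 in GIMEN. In these bulk samples fewer cells of a type and less RNA per cell cannot be told apart, and the part of proliferation and cell state in the results below was not tested. Libraries also stood apart within groups. In S1D4, CPM of replicates 3 and 4 lay apart from that of replicates 1 and 2 for every feedback gene but ETV5. Untreated SK-N-AS was mixed. For DUSP5, replicates 3 and 4 (28.8 and 21.8 CPM) lay above replicates 1 and 2 (16 and 16.3). For SPRED1, replicate 4 alone stood apart (66.1 CPM, against 45.0, 43.0 and 45.0 in replicates 1, 2 and 3). S2D4 replicate 4 differed from the other S2D4 libraries for some genes, such as SPRY4 (817 CPM against 421 to 441).

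The genes were counted in each treated group, and no test compared the counts between groups. In S1D4, 6 of 10 rose and 0 fell, where 17.6% of all tested genes rose and 22.4% fell. In S2D4, 7 of 10 rose and 0 fell, against 30.9% and 32.2% of all genes. In S2D30, 4 rose and 2 fell, against 33.8% and 36.5%, so the share that rose was near that of all genes. Leaving out 1 library at a time gave 4 to 6 risen genes in S2D30, with 6 without untreated replicate 4. In GIMEN D30, 7 of the 9 tested genes rose and 0 fell, against 35.5% and 36% of all genes. The median log2 fold change of the genes was 0.596 in S1D4, 1.07 in S2D4, 0.238 in S2D30 and 0.971 in GIMEN D30, while the median over all genes lay between -0.0342 and 0.0161 in these comparisons. The 3 SK-N-AS comparisons share their untreated libraries.

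**Figure D1:**
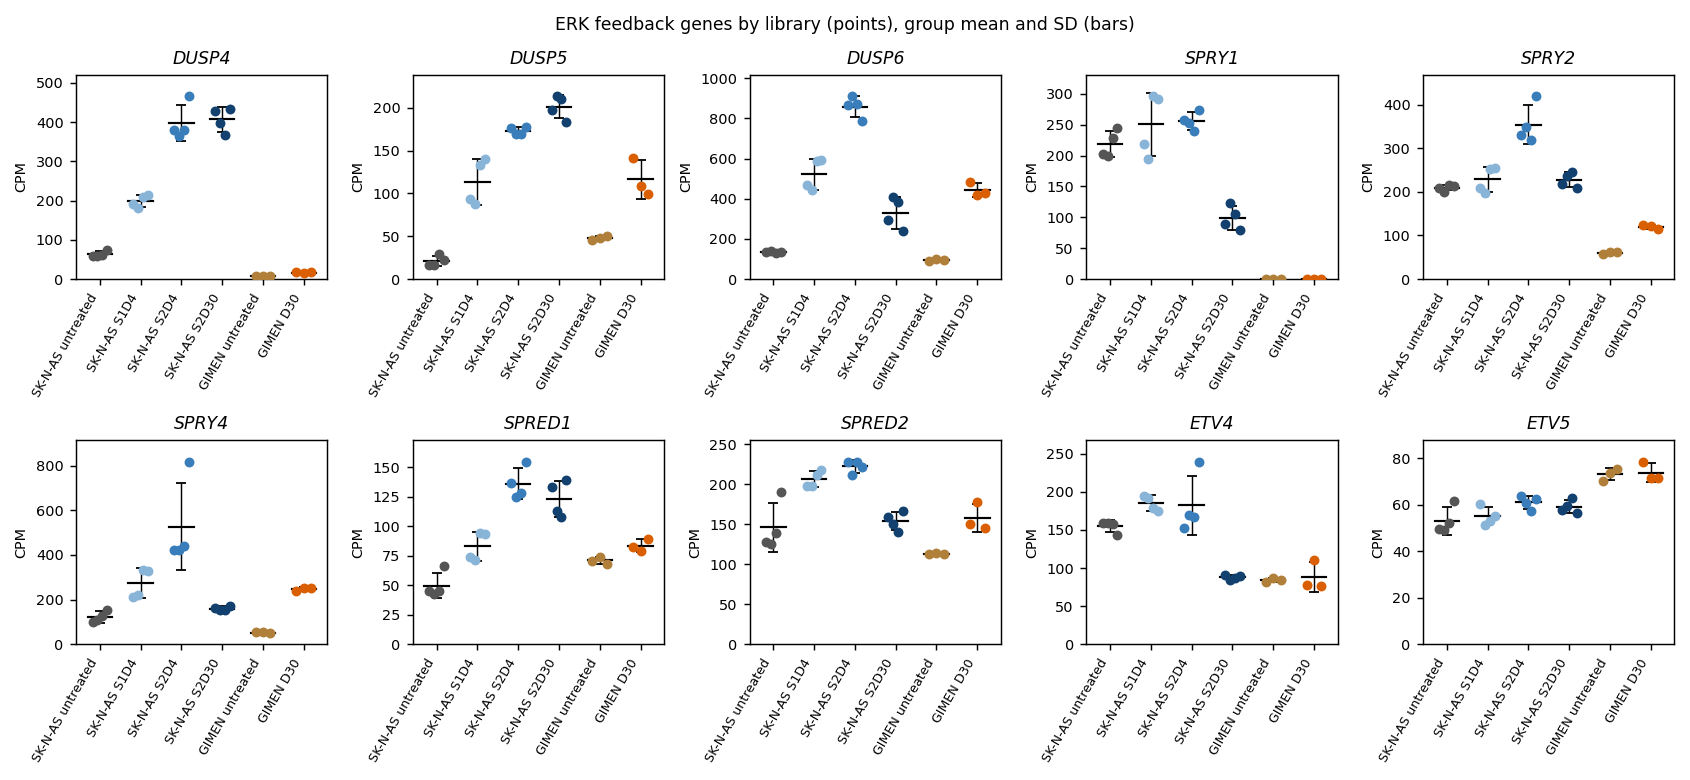
CPM of each gene in each library (points), with group mean and SD (bars), on axes that start at 0. DUSP4 and DUSP5 stayed high in S2D30, DUSP6, SPRY1 and SPRY4 were lower in S2D30 than in S2D4, and SPRY1 was 0 in all 6 GIMEN libraries.

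Promoter sequences are shown for SPRY1 and SPRY2, since GIMEN libraries held counts of SPRY2 and no count of the related SPRY1. The 250 bases before a start listed in RefSeq (GRCh38.p14) are printed 5′ to 3′ in the gene's own direction, chr4:123396545-123396794 on the plus strand for SPRY1 and, on the minus strand for SPRY2, chr13:80339660-80339909 (first) and chr13:80341127-80341376 (second), with the letters CCGGAA, the core that ETS factors bind, and TGACG, the core of the cAMP response element, in capitals where present on either strand.
SPRY1: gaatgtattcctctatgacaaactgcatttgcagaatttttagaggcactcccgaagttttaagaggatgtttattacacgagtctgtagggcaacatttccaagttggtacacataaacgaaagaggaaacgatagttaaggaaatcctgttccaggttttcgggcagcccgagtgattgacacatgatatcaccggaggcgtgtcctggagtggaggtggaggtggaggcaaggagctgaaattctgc
SPRY2 first: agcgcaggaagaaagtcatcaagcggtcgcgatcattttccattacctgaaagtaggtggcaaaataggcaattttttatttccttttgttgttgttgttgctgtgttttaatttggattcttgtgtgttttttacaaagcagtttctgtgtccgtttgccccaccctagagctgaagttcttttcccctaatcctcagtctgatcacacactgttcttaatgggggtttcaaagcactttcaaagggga
SPRY2 second: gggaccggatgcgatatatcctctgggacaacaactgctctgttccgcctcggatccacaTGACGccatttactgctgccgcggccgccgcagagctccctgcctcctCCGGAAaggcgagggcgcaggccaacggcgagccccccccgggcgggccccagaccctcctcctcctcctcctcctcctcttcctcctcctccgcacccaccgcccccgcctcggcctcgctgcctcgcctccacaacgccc

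Windows of 250 bases before to 50 after a start were found for 6 of the genes, in 10 windows. They were DUSP6, SPRY1, SPRY2, SPRY4, SPRED1 and SPRED2, and DUSP4, DUSP5, ETV4 and ETV5 were not matched. The longer motifs TGAATGAA and TGAATGGA of the repressor capicua, CCGGAAGT of ETS factors and TGACGTCA of the cAMP response element were in 0 of the 10 windows on either strand. They were in 1.65%, 1.03%, 4.14% and 1.85% of 35116 windows of the same length. The short cores were searched after that. CCGGAA, which CCGGAAGT contains, was in 2 of the 10 windows (1 of SPRY1 and 1 of SPRY2) and in 17.2% of all windows. TGACG, which TGACGTCA contains, was in 3 (of SPRY2, SPRY4 and SPRED2) and in 24.6% of all windows. The printed SPRY1 window and the first printed SPRY2 window have neither core. Of the 3 SPRY2 windows, 2 have neither, and of the 2 SPRY1 windows the one not printed holds CCGGAA. In GENCODE 29, 4 SPRY1 transcripts hold near their beginning the bases that lie shortly after the start of the SPRY1 window. That was so for 1 SPRY2 transcript at the first SPRY2 window and for 0 at the second, which rests on RefSeq alone. Those bases follow the start and are not part of the printed sequences. These are matches of letters and not measured binding.

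DUSP6, a cytoplasmic phosphatase that acts on ERK, had the highest level per kilobase of exon among the 10 genes in S1D4, S2D4 and GIMEN D30 (means of 113, 185 and 96.0 CPM per kilobase). The 4 untreated SK-N-AS libraries had 134, 139, 130.1 and 132 CPM, S1D4 had 467, 446, 587 and 592, S2D4 had 867, 909.7, 872 and 786, and S2D30 had 293, 411, 383 and 237. All treated libraries lay above all untreated ones, and all S2D30 libraries lay below all S1D4 and S2D4 libraries. The log2 fold change against untreated cells was 1.94 (SE 0.147, adjusted p = 8.73e-08) in S1D4, 2.65 (SE 0.151, adjusted p = 3.35e-10) in S2D4 and 1.27 (SE 0.145, adjusted p = 6.6e-07) in S2D30. Between both stage 2 times it fell by 1.38 (SE 0.145, adjusted p = 8.19e-07). The 3 untreated GIMEN libraries had 88.6, 98.6 and 94.4 CPM and the D30 libraries 484, 419 and 429.9, a change of 2.22 (SE 0.0745, adjusted p = 4.42e-10). S2D30 replicates 1 and 4 were the lowest for DUSP6, with 293 and 237 CPM. In GENCODE 29, 40.5% of the exon bases of DUSP6 lie opposite exons of AC024909.2, and whether counting used strand is not given in the sources used here, so reads of both cannot be told apart.

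DUSP4 and DUSP5, the nuclear phosphatases of the group, kept their rise at 30 days. DUSP4 had 59.8, 58.3, 61.0 and 74.4 CPM across the untreated SK-N-AS libraries, 192, 181, 209 and 215 across S1D4, 379, 364, 380.2 and 465 across S2D4, and 429, 399, 366 and 432 across S2D30. The groups did not overlap apart from both stage 2 times. Its log2 fold change against untreated cells was 1.63 (SE 0.0999, adjusted p = 7.29e-09), 2.61 (SE 0.103, adjusted p = 5.74e-12) and 2.65 (SE 0.103, adjusted p = 1.73e-12) in S1D4, S2D4 and S2D30. DUSP5 had 16, 16.3, 28.8 and 21.8 CPM across the untreated SK-N-AS libraries, 93.8, 87.3, 133 and 140.0 across S1D4, 176, 169, 169.8 and 177 across S2D4, and 197, 213, 210.1 and 184 across S2D30. Each group lay above the one before it without overlap. Its log2 fold change was 2.43 (SE 0.18, adjusted p = 6.47e-08), 3.03 (SE 0.184, adjusted p = 6.33e-10) and 3.25 (SE 0.185, adjusted p = 1.37e-10), and the difference of 0.21 (SE 0.168) between both stage 2 times had an adjusted p of 0.304.

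GIMEN had little DUSP4. Its untreated libraries had 8.56, 7.96 and 6.61 CPM and its D30 libraries 17.3, 14.2 and 18, below every SK-N-AS library, and the rise of 1.07 (SE 0.137) had an adjusted p of 2.73e-05. DUSP5 had 45.8, 47.4 and 50.2 CPM in untreated GIMEN, above every untreated SK-N-AS library. In D30 it had 142, 108 and 99.1 CPM, overlapping S1D4, a rise of 1.26 (SE 0.113, adjusted p = 1.43e-06).

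Levels per kilobase of exon put genes of different length on a common scale. They rest on GENCODE 29 lengths, since the annotation behind the counts is not given, and the DUSP6 part may include reads of AC024909.2. On this scale the 3 phosphatases together measured 45.6 ± 2.11 (SD, n = 4) before treatment of SK-N-AS, 184 ± 28.9 at S1D4, 306 ± 3.91 at S2D4 and 204 ± 19.1 at S2D30. DUSP6 made up 63.6% ± 4.35 of this sum in untreated cells, 61.5% ± 0.715 in S1D4, 60.5% ± 2.97 in S2D4 and 34.6% ± 5.36 in S2D30, where DUSP5 made up 37.7% ± 1.10. The mean sum in S2D30 lay above that of untreated cells, with a smaller share of DUSP6. In GIMEN the sum was 39.6 ± 1.56 (SD, n = 3) untreated and 143 ± 15.9 in D30, and the share of DUSP6 was 51.1% ± 1.2 and 67.4% ± 2.41.

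**Figure D2:**
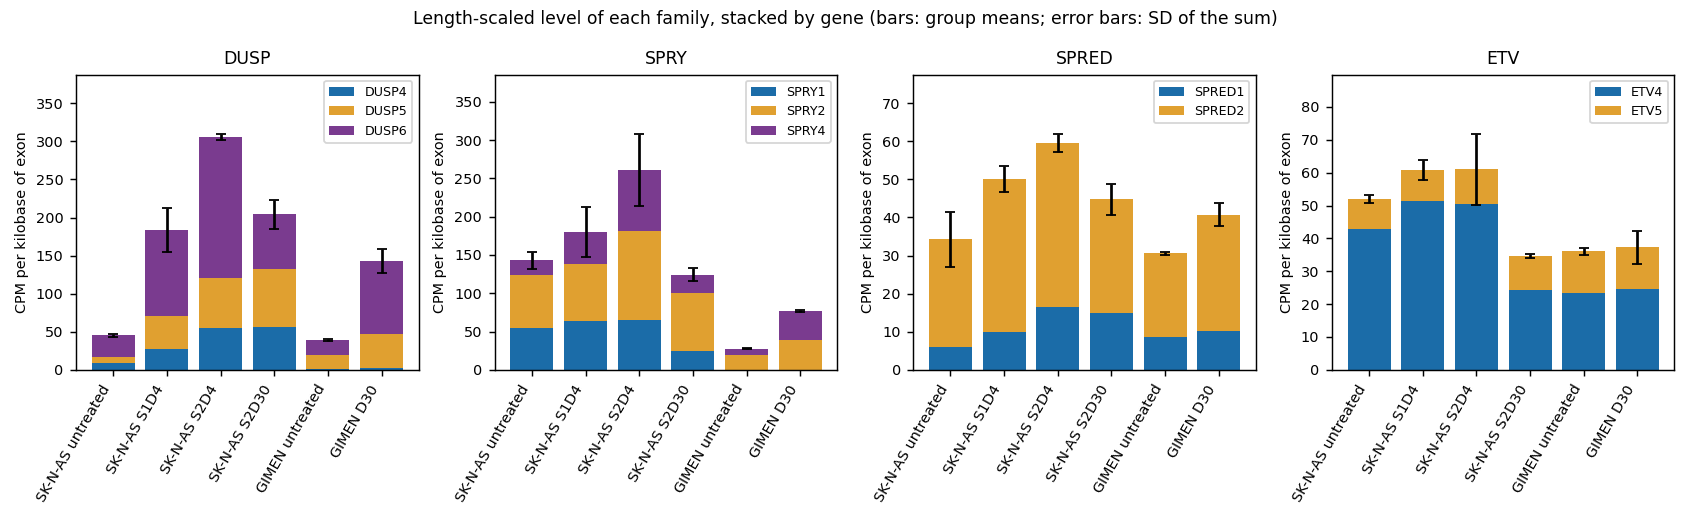
Bars show group means of CPM per kilobase of exon for each family, stacked by gene, and error bars the SD of the sum over libraries. The DUSP sum was largest in S2D4 (306), and the SPRY sum in untreated GIMEN (27.7) held no SPRY1.

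SPRY4 had the largest fold change of the Sprouty genes in S1D4, S2D4 and GIMEN D30. It had 98.4, 107, 129 and 155 CPM across the untreated SK-N-AS libraries, 213, 219, 332 and 329.9 across S1D4, 420.5, 424, 441 and 817 across S2D4, and 164, 152, 152 and 173 across S2D30. S1D4 and S2D4 lay above untreated cells without overlap, and S2D30 overlapped untreated cells. The log2 fold change was 1.14 (SE 0.213, adjusted p = 0.00048) in S1D4 and 2.07 (SE 0.218, adjusted p = 4.27e-07) in S2D4. S2D4 replicate 4 was the highest library, and without it the SPRY4 change in S2D4 was 1.78. In S2D30 the value of 0.36 (SE 0.211) had an adjusted p of 0.141, and between both stage 2 times SPRY4 fell by 1.71 (SE 0.216, adjusted p = 5.9e-06). In GIMEN it had 54.6, 53.3 and 49.1 CPM untreated and 238, 253 and 251 in D30, a rise of 2.21 (SE 0.0653, adjusted p = 1.61e-10).

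SPRY2 had 209.8, 201, 216 and 213 CPM across the untreated SK-N-AS libraries, 210.1, 197, 253 and 254 across S1D4, 331, 348, 319 and 419 across S2D4, and 218, 237, 247 and 209 across S2D30. Only S2D4 stood clear of untreated cells, with a change of 0.72 (SE 0.101, adjusted p = 1.03e-05). The values were 0.10 (adjusted p = 0.462) in S1D4 and 0.08 (adjusted p = 0.476) in S2D30, and SPRY2 fell by 0.64 (SE 0.101, adjusted p = 5.94e-05) between both stage 2 times. In GIMEN it had 56.8, 61.6 and 61.0 CPM untreated and 123, 121 and 114 in D30, a rise of 0.97 (SE 0.0614, adjusted p = 7.75e-08).

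SPRY1 was the only Sprouty gene here to end below untreated cells in SK-N-AS. It had 203, 199, 228 and 244 CPM untreated, 219, 195, 296 and 292 across S1D4, 258, 253, 239 and 274 across S2D4, and 88.9, 123, 105 and 79.0 across S2D30. S2D30 lay below every other SK-N-AS library. The values of 0.17 in S1D4 and 0.20 in S2D4 did not pass the test (adjusted p = 0.364 and 0.241). In S2D30 SPRY1 fell by 1.18 (SE 0.144, adjusted p = 1.54e-06) against untreated cells and by 1.38 (SE 0.145, adjusted p = 8.58e-07) against S2D4.

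SPRY1 had 0 counts in each of the 6 GIMEN libraries. Against a floor of 3 counts per library, the mean of untreated SK-N-AS was at least 1390-fold higher and that of S2D30 at least 531-fold higher, bounds that cover counting error only. The next protein-coding genes on either side of SPRY1 on chromosome 4, in RefSeq order, were counted in GIMEN. SPATA5, the gene before it, had 260 to 345 counts and ANKRD50, the gene after it, had 1450 to 1740 in untreated GIMEN. FGF2 and NUDT6 further before it had 329 to 351 and 74 to 125 counts, and FAT4 and INTU further after it had 89 to 104 and 322 to 398. In RefSeq the start of ANKRD50 lies 1267.3 kb after that of SPRY1 and the start of INTU 4236.2 kb after it, while SPATA5 starts at -473.7 kb, so these counts do not describe the sequence close to SPRY1.

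**Figure D3:**
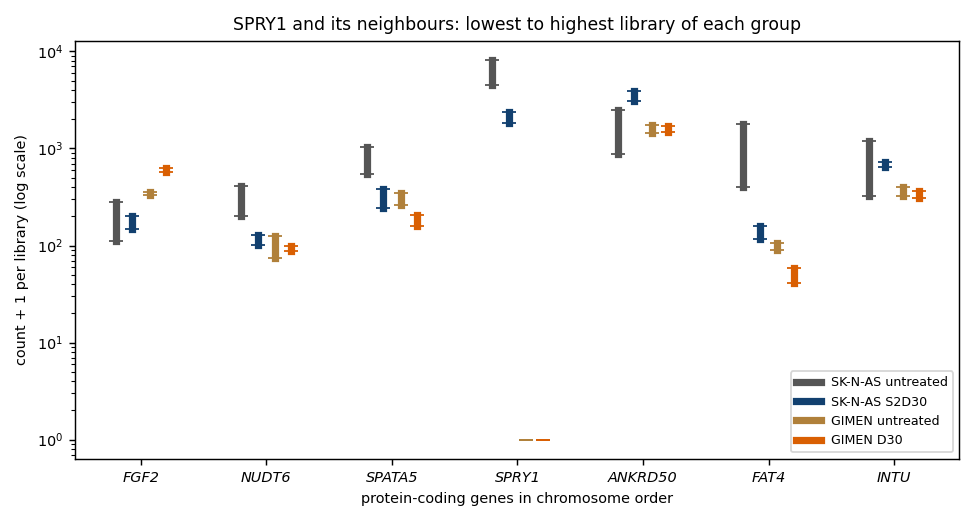
The range of counts per library (plus 1, log scale) for SPRY1 and the 3 protein-coding genes on each side in chromosome order. GIMEN bars sit at 0 counts for SPRY1 and between 40 and 1740 counts for its neighbours.

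Summed per kilobase, the 3 Sprouty genes reached 143 ± 10.7 (SD, n = 4) in SK-N-AS before treatment, 180.2 ± 32.5 at S1D4, 261 ± 47.1 at S2D4 and 124 ± 8.37 at S2D30. SPRY2 made up 48.5% ± 2.60 of the sum in untreated SK-N-AS and 60.3% ± 1.32 in S2D30, while SPRY1 went from 38.6% ± 0.869 to 20.0% ± 2.65. GIMEN had 27.7 ± 0.702 (SD, n = 3) untreated and 77.0 ± 1.43 in D30, and its SPRY4 share was 28.8% ± 1.85 and 48.9% ± 1.67.

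SPRED1 rose in all 4 comparisons with untreated cells. It had 45.0, 43.0, 45.0 and 66.1 CPM across the untreated SK-N-AS libraries, 73.7, 71.4, 94.1 and 93.2 across S1D4, 137, 125, 128 and 155 across S2D4, and 133, 113, 107 and 139 across S2D30. Untreated libraries lay below all others, replicate 4 included. The log2 fold change was 0.72 (SE 0.138, adjusted p = 0.000609), 1.42 (SE 0.139, adjusted p = 1.87e-07) and 1.27 (SE 0.139, adjusted p = 3.93e-07) in S1D4, S2D4 and S2D30. GIMEN had 70.5, 74.3 and 68.3 CPM untreated and 82.6, 79.1 and 89.3 in D30. The SPRED1 rise of 0.21 (SE 0.0665, adjusted p = 0.0149) there was lost without untreated replicate 1 (adjusted p = 0.063) or 3 (adjusted p = 0.0823).

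SPRED2 was the more abundant of both per kilobase, at 82.5% ± 0.54 of their sum in untreated SK-N-AS. It had 128, 126, 139 and 191 CPM untreated, 198, 198, 212 and 218 across S1D4, 228, 211, 228 and 221 across S2D4, and 159, 151, 139.8 and 166 across S2D30. S1D4 and S2D4 lay above untreated cells, and S2D30 overlapped them. The change was 0.48 (SE 0.105, adjusted p = 0.00185) in S1D4 and 0.57 (SE 0.106, adjusted p = 0.000166) in S2D4, and SPRED2 fell by 0.53 (SE 0.106, adjusted p = 0.000498) from S2D4 to S2D30. In S2D30 the value of 0.04 (adjusted p = 0.728) turned into a called 0.20 (adjusted p = 0.0267) without untreated replicate 4. In GIMEN it had 113, 114 and 113 CPM untreated and 151, 178 and 145 in D30, a rise of 0.45 (SE 0.0762, adjusted p = 0.000237).

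ETV4 fell at 30 days in SK-N-AS. It had 159.7, 159, 158 and 143 CPM untreated, 195, 192, 179 and 175 across S1D4, 153, 169, 167 and 239 across S2D4, and 91.2, 84.8, 87.3 and 89.2 across S2D30. All S1D4 libraries lay above all untreated ones, yet the value of 0.23 (SE 0.11) had an adjusted p of 0.106. In S2D4 the value was 0.20 (adjusted p = 0.126) and called without S2D4 replicate 1 (0.27, adjusted p = 0.0416). ETV4 fell by 0.85 (SE 0.111, adjusted p = 3.12e-06) in S2D30 against untreated cells and by 1.05 (SE 0.111, adjusted p = 9.03e-07) against S2D4. In GIMEN it had 82.1, 87.0 and 84.7 CPM untreated and 77.4, 111 and 77.1 in D30, with a value of 0.04 (adjusted p = 0.789). Without D30 replicate 2, the highest library, it was -0.16 (adjusted p = 0.0402).

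ETV5 was not called changed within either line. Its 16 SK-N-AS libraries lay between 49.0 and 63.9 CPM and its 6 GIMEN libraries between 70.3 and 78.6. Log2 values against untreated cells were 0.03 in S1D4, 0.17 in S2D4, 0.12 in S2D30 and -0.01 in GIMEN D30, with adjusted p-values of 0.81, 0.0785, 0.193 and 0.857. Without untreated SK-N-AS replicate 4, which had 61.8 CPM against 49.0 to 52.2 in the others, ETV5 was called at 0.25 (adjusted p = 0.00681) in S2D4 and 0.20 (adjusted p = 0.0216) in S2D30. The related ETV1, which is outside the 10 genes, rose by 1.16 (SE 0.0729, adjusted p = 7.3e-08) in GIMEN D30 and fell by 1.33 (SE 0.183, adjusted p = 5.9e-06) in S2D30.

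**Figure D4:**
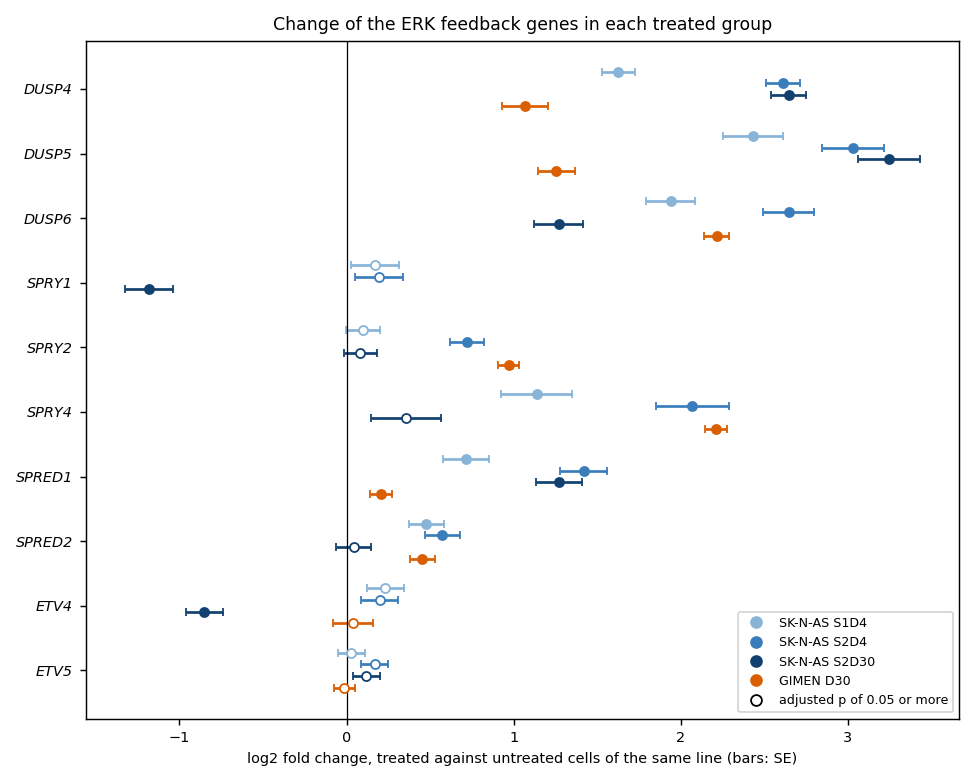
Log2 fold change of each gene against untreated cells of the same line (bars: SE, open symbols: adjusted p of 0.05 or more). The 3 DUSP genes lay above 0 in all 4 groups, and SPRY1 and ETV4 lay below 0 in S2D30.

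Between S1D4 and S2D4 the cells received bufalin, a change from DMEM to Neurobasal with B27 listed without serum, and 4 more days with PP121. Bufalin, medium, serum and time cannot be told apart in this step. In it 6 of 10 genes rose and 0 fell, against 28.3% of all genes higher and 26.8% lower. The risen genes were DUSP4 (0.98), DUSP5 (0.60), DUSP6 (0.71), SPRY2 (0.62), SPRY4 (0.93) and SPRED1 (0.70). Without S2D4 replicate 4, ETV4 was called lower in this comparison (-0.19, adjusted p = 0.0264) and the SPRY4 value was 0.64. From S2D4 to S2D30 the direction was the other way, and 6 of 10 fell and 0 rose, against 26.9% of all genes lower and 24.4% higher. They were DUSP6, SPRY1, SPRY2, SPRY4, SPRED2 and ETV4. The median log2 difference of the 10 genes was 0.611 in the first step and -0.585 in the second, with 0.0184 and -0.0179 over all genes. These comparisons share the S2D4 libraries.

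The 30-day change differed between the lines for most of the genes. In a test of the difference itself, which took the GIMEN change from the SK-N-AS change, 3 of 9 genes were higher and 5 lower, against 24.5% and 25.2% of all genes. SPRY1 is left out, since its 0 counts in GIMEN allow no estimate. DUSP4 (1.56, SE 0.162), DUSP5 (1.98, SE 0.23) and SPRED1 (1.05, SE 0.181) rose more in SK-N-AS. DUSP6 (-0.965, SE 0.193), SPRY2 (-0.905, SE 0.106), SPRY4 (-1.87, SE 0.163) and ETV4 (-0.904, SE 0.154) had the lower value there. SPRED2 was called lower (-0.425, SE 0.167, adjusted p = 0.0442), and lost the call without S2D30 replicate 1, 2 or 3, without any of the untreated GIMEN libraries, or without GIMEN D30 replicate 1 or 2, with adjusted p-values up to 0.152. ETV5 did not pass (0.12, adjusted p = 0.423). The GIMEN cells received lower doses of both drugs, in RPMI with serum lowered from 10% to 1%. SK-N-AS at 30 days was in Neurobasal with B27, for which the labels list no serum.

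Before treatment, 6 of 9 genes were higher in SK-N-AS than in GIMEN and 3 were lower, against 38.6% and 35.3% of all genes. SPRY1 is left out of this count, since its 0 counts in GIMEN allow no estimate of the difference. It had 199 to 244 CPM in untreated SK-N-AS. DUSP4 was higher by 3.02 on the log2 scale (SE 0.124), SPRY2 by 1.79, SPRY4 by 1.204, ETV4 by 0.86 and DUSP6 by 0.50 (SE 0.138, adjusted p = 0.00401). DUSP5 (-1.23), SPRED1 (-0.53) and ETV5 (-0.48) were lower. SPRED2 was higher by 0.35 (adjusted p = 0.0151), moved to 0.21 without untreated SK-N-AS replicate 4, and lost the call without untreated GIMEN replicate 1 (adjusted p = 0.0535) or 3 (adjusted p = 0.0547). Upper-quartile scaling shifted the median of all genes in this comparison by 0.152, and the 9 directions held under it. The level of ETV5 was thus higher in GIMEN than in SK-N-AS in all libraries, unlike DUSP4, which was higher in all SK-N-AS libraries.

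Ordered by group mean, some neighbouring groups overlapped. The highest SK-N-AS groups overlapped for DUSP4 (S2D30 and S2D4), SPRED1 (S2D4 and S2D30), SPRED2 (S2D4 and S1D4) and ETV4 (S1D4, S2D4 and untreated). S1D4 overlapped GIMEN D30 for DUSP5, DUSP6 and SPRY4. SPRY1 in S2D4, S1D4 and untreated SK-N-AS ran together, as did SPRY2 in S1D4, S2D30 and untreated SK-N-AS. S2D30 overlapped untreated SK-N-AS for SPRY4 and SPRED2, and GIMEN D30 overlapped S2D30 for SPRED2. SPRED1 in GIMEN D30, S1D4 and untreated GIMEN formed another such run, as did ETV4 in GIMEN D30, S2D30 and untreated GIMEN, at 77.1 to 111 CPM. ETV5 overlapped among all SK-N-AS neighbours and between both GIMEN groups, with GIMEN above SK-N-AS. The other neighbouring groups did not overlap, apart from SPRY1 at 0 in both GIMEN groups.

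Across the 22 libraries, DUSP6 and SPRY4 had the most similar log2 CPM of any pair of the 10 genes (Pearson r = 0.925). DUSP4 was most like SPRY2 (0.909), DUSP5 most like SPRED1 (0.906), SPRED2 most like SPRY4 (0.902) and ETV4 most like SPRY1 (0.716). ETV5 stood apart, with its highest value at 0.212 to DUSP5 and its lowest at -0.836 to SPRY1, which is at 0 in all 6 GIMEN libraries. By Spearman rho the lowest of ETV5 was to ETV4 (-0.616), and that to SPRY1 was -0.534. The libraries are shared by all pairs, fall into 2 lines and 6 groups, and differ in depth, so these values describe the data and carry no p. Among 10293 genes the 5 most like DUSP6 were EIF2AK3 (0.932), a kinase of the unfolded protein response, SPRY4 (0.925), ATE1 (0.923), an arginyltransferase, SEMA3A (0.919), a secreted guidance cue, and NOMO1 (0.918), which has near-identical copies. SEMA3A had 38.6 ± 8.20 CPM before treatment of SK-N-AS, 197 ± 4.20 at S1D4, 249 ± 4.92 at S2D4 and 73.4 ± 1.35 at S2D30 (SD, n = 4).

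**Figure D5:**
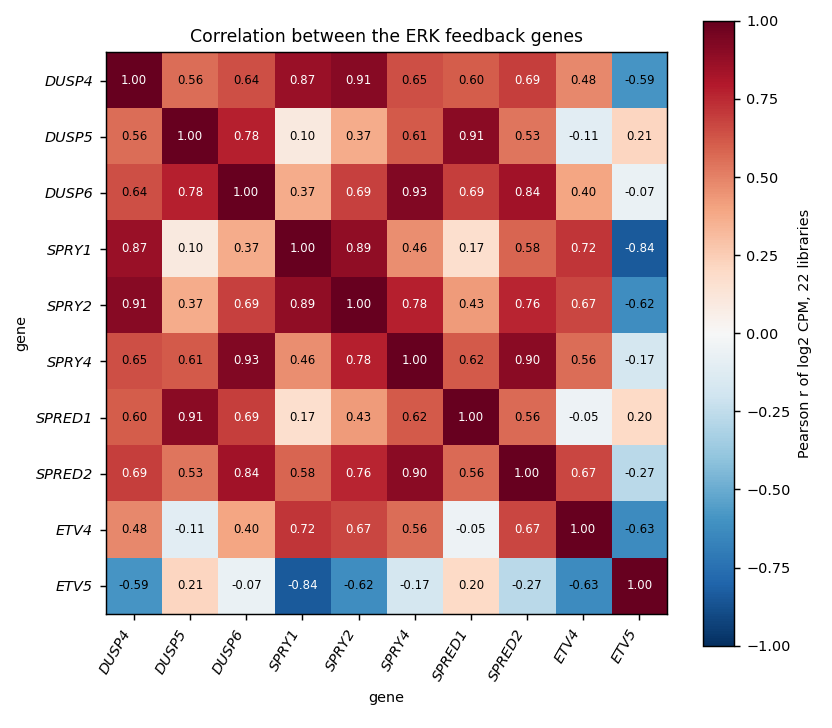
Pearson r of log2 CPM between the genes over all 22 libraries (colour and printed value, scale -1 to 1). DUSP6 with SPRY4 gave 0.925, and the ETV5 row holds the lowest values, down to -0.836 with SPRY1.

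Other genes of the pathway were counted in 6 lists, to be read beside the shares of all genes that rose and fell: 17.6% and 22.4% in S1D4, 30.9% and 32.2% in S2D4, 33.8% and 36.5% in S2D30, and 35.5% and 36% in GIMEN D30. Of 11 further family genes, 5 rose and 2 fell in S1D4, 6 rose and 2 fell in S2D4, and 4 rose and 5 fell in S2D30, and of 9 tested in GIMEN 5 rose and 2 fell. Their medians were 0.156, 0.273, -0.212 and 0.901, beside -0.0123, -0.0186, -0.0342 and 0.0161 over all genes. DUSP1, a nuclear phosphatase that acts on several MAP kinases, went from 16.9 CPM untreated to 42.3 in S1D4, 377 in S2D4 and 533 in S2D30, and in GIMEN from 14.3 to 98.1. SPRED3 rose by 1.495 in S1D4, 1.53 in S2D4, 1.51 in S2D30 and 1.53 in GIMEN. DUSP9, another ERK phosphatase, fell by 3.23 in S2D30 from 7.47 CPM to 0.807 and had 0 CPM in both GIMEN groups.

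Of 14 genes that ERK output is known to induce, 9 rose and 1 fell in S1D4, 14 rose in S2D4, 13 rose and 1 fell in S2D30, and 11 rose and 3 fell in GIMEN D30. The medians were 0.919, 2.9, 2.34 and 1.11. EGR1, an immediate-early transcription factor, went from 23.4 CPM untreated to 134 in S1D4, 1379.6 in S2D4 and 1104 in S2D30, and from 146 to 947 in GIMEN. From S2D4 to S2D30, 4 of the 14 rose and 5 fell (median -0.233), against 24.4% and 26.9% of all genes. FOS rose by 0.93 in that step and EPHA2 fell by 1.23.

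Of 10 other inhibitors, 3 rose and 1 fell in S1D4, 6 rose and 2 fell in S2D4, 4 rose and 2 fell in S2D30, and 3 rose and 5 fell in GIMEN. Their medians were 0.114, 0.527, 0.173 and -0.244, and the share that rose in S2D30 was near that of all genes. ERRFI1, which inhibits the EGF receptor, went from 7.78 CPM to 19.3, 80.0 and 35.5 over S1D4, S2D4 and S2D30, while untreated GIMEN had 252. IL17RD, an inhibitor of FGF signalling, fell by 2.12 in S2D30 (SE 0.167, adjusted p = 7.4e-09). NF1, which encodes the neurofibromin that SPRED proteins recruit, had 44.5 CPM in untreated SK-N-AS and 6.21 in untreated GIMEN, a difference of 2.82 (adjusted p = 7.37e-09).

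Of 19 genes of the cascade itself, 3 rose and 4 fell in S1D4, 8 rose and 4 fell in S2D4, 8 rose and 5 fell in S2D30, and 6 rose and 4 fell in GIMEN. The S1D4 shares were close to those of all genes, and the medians were -0.0976, 0.0219, 0.108 and 0.0196. MAP2K1, which encodes MEK1, rose by 1.05 in S2D4 and 1.03 in S2D30. Of 11 transcription factors and co-repressors listed for their known links to such genes, 2, 8 and 9 rose and 0 fell over the SK-N-AS groups, and 5 rose and 5 fell in GIMEN (medians 0.179, 0.962, 0.77 and -0.0767). ETS1 rose by 2.58 in S2D4 and 2.83 in S2D30 and fell by 0.82 in GIMEN. Of 20 tested receptors and ligands, 4 rose and 5 fell in S1D4, 13 rose and 4 fell in S2D4, and 12 rose and 4 fell in S2D30, and of 13 tested in GIMEN 6 rose and 5 fell. The S1D4 shares were close to those of all genes, and the medians were 0.126, 1.16, 0.815 and 0.437. FGFR1 went from 166 CPM to 337, 769.6 and 641 over the SK-N-AS groups, and EREG, an EGF receptor ligand, had 0.239 CPM untreated and 112 in S2D30. From S2D4 to S2D30, 4 of the 20 receptors and ligands rose and 4 fell (median 0.0358), against 24.4% and 26.9% of all genes. EREG rose by 2.45 in that step (SE 0.295, adjusted p = 3.73e-06), while FGFR1 had a value of -0.26 (adjusted p = 0.153). PDGFRB, a PDGF receptor, fell by 2.15 (SE 0.193, adjusted p = 1.39e-07).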

How the data were processed

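Total RNA was sequenced paired-end. The authors deposited 1 table of raw counts per gene, 35237 symbols by 22 libraries, and the deposited values were whole numbers that were not normalized. Aligner, counter, genome build, annotation and strandedness are not given in the sources used here. Groups, doses and times came from the labels. The test was edgeR 4.0.16 under R 4.3.3, with filterByExpr (minimum count 10, minimum total 15), TMM scaling, glmQLFit and glmQLFTest, with Benjamini-Hochberg adjustment over all genes and a threshold of 0.05. One model held the 16 SK-N-AS libraries (15810 genes), one the 6 GIMEN libraries (13517) and one the 14 untreated and 30-day libraries (16246), which tested the difference between lines. Log2 fold changes come from these fits, and CPM from 1 TMM scaling of all 22 libraries. The SE was derived as the absolute log2 fold change divided by the square root of the F value of the test. Levels per kilobase used exon lengths of GENCODE 29. For correlations, CPM was put on a log2 scale after a prior count of 2. A gene at 0 was given a floor of 3 counts per library. The scripts were tested on simulated data. Same-numbered replicates of 2 groups correlated between -0.101 and 0.293 in their deviations, and not all of any comparison exceeded 0.1, so samples were not treated as paired. For S1D4 and untreated SK-N-AS, replicates 1, 2 and 4 gave 0.274, 0.266 and 0.293, and replicate 3 gave 0.0436. A shared origin of those libraries was not tested.

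The 10 genes and the lists were chosen with earlier results of these data known. Besides the 10 genes, each list and comparison could name at most 4 genes: the called genes of largest absolute log2 fold change with a mean of at least 10 CPM over that line. DUSP9 was named outside this rule, after its values were seen. FGFR1 from S2D4 to S2D30, which was not called, was also named outside it. Alternatives were other scalings, filters, DESeq2 1.42.0, a replicate block, fewer or more groups in a model, and leaving out each library. A term for replicates 3 and 4 was added after the data were seen. Of the adrenergic markers, 1 is not reported here, and the other 6 were summed.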

Additional observations from a re-analysis of the deposited data

Results flagged for a closer look

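In groups of 4 libraries, 4 values lay far from the others in 40 groups tested, and chance flags about 1 in 20 groups. DUSP4 had 465 CPM in S2D4 replicate 4 and 364 to 380 in the other S2D4 libraries. SPRY4 had 817 CPM in the same library and 421 to 441 in the others. SPRED1 had 66.1 CPM in untreated SK-N-AS replicate 4 and 43 to 45 in the others, and ETV4 had 143 there against 158 to 160.

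The 30-day change differed between the lines, with the test of the difference in edgeR, for 8 genes. On the log2 scale, SK-N-AS minus GIMEN was 1.56 for DUSP4, 1.98 for DUSP5 and 1.05 for SPRED1. It was -0.965 for DUSP6, -0.905 for SPRY2, -1.87 for SPRY4, -0.425 for SPRED2 and -0.904 for ETV4. Doses, serum and medium differed between the lines as well, and their part was not tested.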

How the results depend on the processing

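Of 1183 values of the 10 genes under the alternatives, 1142 kept their direction and their side of the threshold, 14 lost a call, 10 gained one in the same direction and 17 changed sign. The values that changed sign had not been called, and 1 of them, ETV4 in GIMEN D30 without D30 replicate 2, was called after the change (adjusted p = 0.0402). With upper-quartile scaling they were -0.07219 for SPRY1 from S1D4 to S2D4, 0.01009 for ETV5 from S2D4 to S2D30 and 0.03736 for ETV5 in GIMEN D30. Leaving out 1 library at a time gave these ranges, from lowest to highest. ETV5 in S1D4 went from -0.01833 to 0.1094 and SPRED2 in S2D30 from -0.02263 to 0.2005. From S1D4 to S2D4, SPRY1 ranged from -0.08042 to 0.1133 and ETV4 from -0.1924 to 0.04276, and the number of genes called lower from 0 to 1. The number of risen genes ranged from 4 to 6 in S2D30 and from 7 to 8 in S2D4. DUSP4 ranged from -0.01031 to 0.1146 between S2D4 and S2D30. In GIMEN D30, ETV4 ranged from -0.1558 to 0.1341, ETV5 from -0.05082 to 0.01137, and the number called lower from 0 to 1. With only the compared groups in the model, DUSP5 was called higher in S2D30 than in S2D4 (0.2244, adjusted p = 0.0158), so 1 gene was higher, SPRY4 was called in S2D30 (0.38, adjusted p = 0.0167) and ETV4 in S1D4 (0.2661, adjusted p = 0.0217). Upper-quartile scaling also called ETV4 in S1D4 (0.2613, adjusted p = 0.0409). The SPRED2 difference between lines was not called by DESeq2 (adjusted p = 0.0519). The cause of these changes was not tested. By Spearman rho, TSPAN14 and POLG2 took the place of ATE1 and NOMO1 among the genes most like DUSP6, and SPRY1 that of DUSP4 as the most like SPRY2.

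In the labels, same-numbered replicates share only a number. With the replicate block, SPRY4 was called in S2D30 at 0.386 (adjusted p = 0.0248), and no other call of the 10 genes changed.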
